A study of Mus musculus with 6 samples.

Results

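The genes described here encode the alpha subunits of voltage-gated potassium (Kv) channels, as measured in sensory neurons sorted from embryonic mouse dorsal root ganglia. Members were the genes whose symbol is Kcn followed by one of the letters a, b, c, d, f, g, h, q, s or v and a number. These were 40 genes out of 41388 listed in each library, in 10 subfamilies by letter. The neurons came from C57BL/6 embryos at 18.5 days post coitum that carried RetFloxedEGFP, a conditional Ret allele that yields EGFP, and Cre from the Nav1.8 (Scn10a) locus, the allele Scn10a tm2(cre)Jnw. EGFP therefore marks cells that belong to the Ret population and have expressed Cre from that sodium channel locus. Ganglia of the lower thoracic to sacral levels were dissociated, and the cells were sorted by flow cytometry. The labels give no number of altered Ret copies and no unsorted or EGFP-negative sample is described here.

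The 6 RNA libraries comprised 3 of female and 3 of male tissue, lettered A, B and C within each sex, and values per library are given in that order. Most libraries pooled 40 ganglia of 2 embryos, which holds for the female ones and for male A. Male B pooled 60 ganglia of 3 embryos, while male C had 20 ganglia of a single embryo. Male C also has a shortened genotype label that names RetFloxedEGFP alone. Read totals lay between 15.69 and 24.03, in units of 1e+06, per library. The libraries did not all resemble each other to the same degree. The chi-square statistic per degree of freedom between read counts was 7.43 for female C against male B, 20.7 to 25.3 among female A, female B and male A, and 49.7 to 74.7 for the other pairs. Every pair differed by more than counting noise, for which this value is near 1, so each library was counted once. The sort genes Scn10a and Ret averaged 119 and 27.8 RPKM, and the 10 nociceptor markers each averaged 1 RPKM or more. The summed level of 10 satellite glia and Schwann cell markers lay between 891 and 1069 RPKM, so glial RNA was present beside that of neurons in every library.

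A Kv channel is made of 4 alpha subunits around a pore that opens when the membrane depolarises, and the potassium current that follows ends the action potential and sets how soon the next one can start. Subunits of one subfamily assemble with each other. Kcna (Kv1), Kcnb (Kv2), Kcnc (Kv3) and Kcnd (Kv4) genes encode delayed rectifier and A-type channels, Kcnq genes encode Kv7 channels, several of which carry the M current, and Kcnh genes encode the eag, erg and elk channels. Kcnf, Kcng, Kcns and Kcnv genes encode silent subunits, which form no channel of their own and modify Kv2 channels. In dorsal root ganglia, A-type and M currents are known for holding nociceptor firing in check. In bulk libraries such as these, fewer cells of a type and less RNA per cell cannot be told apart.

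Kv expression in the sorted neurons was led by 4 genes, Kcnd1, Kcna6, Kcnh6 and Kcnv1, which together made up 57.1 ± 2.28% of the summed level of all 40 (SD, n = 6). The level of a gene is given as RPKM, reads per kilobase of the deposited gene length and per 1e+06 reads, with library sizes normalised between libraries, so that genes of different length can be compared. The order depends on the length term. In reads per 1e+06 reads without it, Kcnd1 and Kcna6 stayed highest, at means of 134 and 133. Kcnb2, a long gene, then averaged 72.5, above Kcnh6 at 50.4 and Kcnv1 at 47.0. Of the 40 genes, 19 averaged 1 RPKM or more, 12 lay between 0.1 and 1 RPKM and 9 lay below 0.1 RPKM. At least 1 read was found in every library for 31 genes, and 30 passed the filter on low counts that precedes the tests below. The median level over those 30 was 1.64 RPKM, beside 3.93 RPKM over all 15026 genes that passed it. Kcna10 had 0 reads in each library, which allows a level of up to 0.191 CPM (reads per 1e+06 reads) in male C, the shallowest library, and 0.125 CPM in female B, the deepest. That limit is 3 reads of the library total and covers counting error only.

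**Figure D1:**
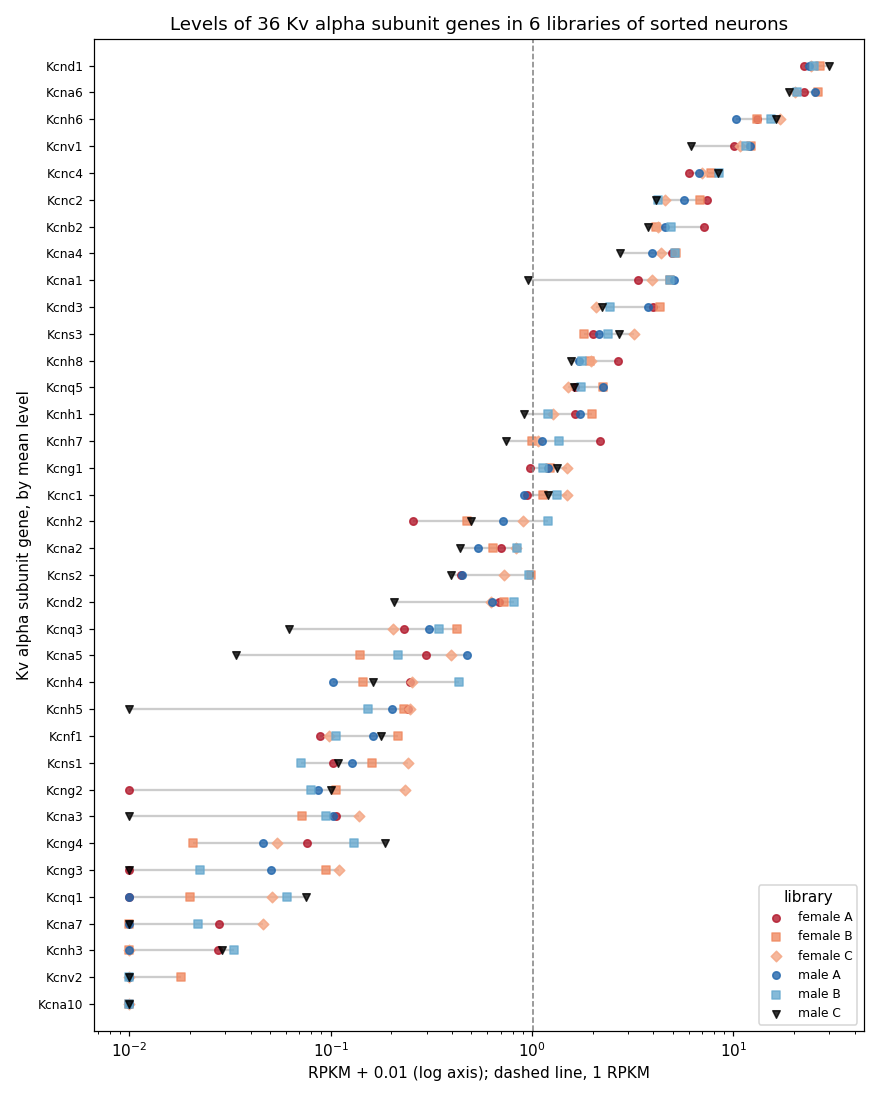
Level of 36 of the 40 Kv alpha subunit genes, in RPKM + 0.01 on a log axis, with 1 point per library and genes ordered by mean; the dashed line marks 1 RPKM. Points of the leading genes Kcnd1, Kcna6 and Kcnh6 lie close together, while for Kcnv1, Kcna1, Kcnd2, Kcnq3, Kcna5 and Kcnh5 the point of male C stands left of the other 5.

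Kcnd1 (ENSMUSG00000009731, chromosome X, 7822289 to 7838280) encodes Kv4.1, a subunit of the fast A-type current that operates below the firing threshold. It stood at 22.5, 27.0 and 24.4 RPKM in the female libraries and 23.7, 25.1 and 29.7 RPKM in the male ones, a mean of 25.4 ± 2.58 RPKM (SD, n = 6). This was the highest mean of the family, above 85% of all tested genes, and the 6 libraries stayed within a narrow range. Of the other Kv4 genes, Kcnd3 (Kv4.3) averaged 3.12 ± 1.00 RPKM, with 3.96, 4.31 and 2.06 RPKM in the female libraries and 3.77, 2.41 and 2.21 RPKM in the male ones. Kcnd2 (Kv4.2) averaged 0.604 ± 0.211 RPKM, with 0.672, 0.714 and 0.619 RPKM in the female libraries and 0.621, 0.801 and 0.196 RPKM in the male ones. Kcnd3 was high in female A, female B and male A, and Kcnd2 was low in male C alone. On the scale of log2(RPKM + 0.1), Kcnd1 lay above Kcnd3 by 3.04 ± 0.53 and above Kcnd2 by 5.25 ± 0.70, in 6 of 6 libraries each. An exact sign-flip permutation test (two-sided, over libraries) gave p = 0.03125 for both, the smallest p that 6 libraries allow, and an adjusted p of 0.0365 over 14 pairs compared.

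Kcna6 (ENSMUSG00000038077, chromosome 6, 126708329 to 126740674), which encodes Kv1.6, was second. It stood at 22.4, 26.2 and 20.1 RPKM in the female libraries and 25.5, 20.7 and 18.9 RPKM in the male ones (mean 22.3 ± 2.95 RPKM, SD, n = 6). The ranges of Kcnd1 and Kcna6 overlapped, and Kcna6 did not overlap the next gene, Kcnh6. Of the exonic length of Kcna6, 39.6% overlaps Gm26673 on the opposite strand; whether the counting used strand is not stated. Gm26673 itself had between 2 and 11 reads per library, against 1674 to 3802 for Kcna6. The part of the overlap in the level of Kcna6 was not tested. Exonic overlap with another gene covered under 5% of the length of Kcnd3, Kcnh7, Kcnq1 and Kcnq5, at 1.72 to 4.57%. For Kcnq1 the opposite gene, Kcnq1ot1, had 240 to 1117 reads per library, against 0 to 5 for Kcnq1.

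The other Kv1 genes were lower. Kcna4, which encodes the A-type subunit Kv1.4, had 4.92, 5.20 and 4.36 RPKM in the female libraries and 3.91, 5.09 and 2.73 RPKM in the male ones (mean 4.37 ± 0.940). Kcna1, which encodes the low-threshold subunit Kv1.1 of myelinated axons, had 3.36, 4.85 and 3.91 RPKM in the female libraries and 5.08, 4.84 and 0.945 RPKM in the male ones (mean 3.83 ± 1.56). Both were lowest in male C. Their levels did not differ beyond the spread: Kcna4 was higher in 5 of 6 libraries, by 0.32 ± 0.62 on the log2 scale (exact sign-flip permutation test, p = 0.28125, adjusted p = 0.303). Without male C the difference was 0.10. Kcna2, which encodes Kv1.2, a usual partner of Kv1.1, averaged 0.656 ± 0.161 RPKM, with 0.692, 0.627 and 0.825 RPKM in the female libraries and 0.529, 0.833 and 0.428 RPKM in the male ones. It lay below Kcna4 by a log2 difference of 2.56 ± 0.21 (Kcna4 minus Kcna2) and below Kcna1 by 2.24 ± 0.71 (Kcna1 minus Kcna2), in 6 of 6 libraries each (exact sign-flip test, p = 0.03125, adjusted p = 0.0365). Kcna5 (Kv1.5) varied widely, with 0.289, 0.130 and 0.385 RPKM in the female libraries and 0.467, 0.206 and 0.0237 RPKM in the male ones, while Kcna3, Kcna7 and Kcna10 lay below 0.1 RPKM.

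Kcnh6 (ENSMUSG00000001901, chromosome 11, 106008124 to 106034549) encodes the erg channel Kv11.2, and it was the leading gene of the eag, erg and elk group. It stood at 13.1, 13.1 and 17.1 RPKM in the female libraries and 10.3, 15.3 and 16.2 RPKM in the male ones (mean 14.2 ± 2.49 RPKM, SD, n = 6). Male A was lowest and female C highest, and the sexes overlapped. The related erg gene Kcnh7 had 2.16, 0.994 and 1.06 RPKM in the female libraries and 1.11, 1.35 and 0.729 RPKM in the male ones. Kcnh2, the other erg gene, had 0.247, 0.464 and 0.892 RPKM in the female libraries and 0.707, 1.19 and 0.486 RPKM in the male ones. Female A was highest for Kcnh7 and lowest for Kcnh2. Kcnh2, best known for the repolarising current of the heart, lay below Kcnh7 (log2 difference -0.86 ± 0.95, Kcnh2 minus Kcnh7) and below the eag gene Kcnh1 (-1.10 ± 0.88), in 6 of 6 libraries each (p = 0.03125 and adjusted p = 0.0365 by the exact permutation test). Without female A, where it was largest, the difference from Kcnh7 was -0.49. The difference from Kcnh1 was as small as -0.0030 in male B. Kcnh1 itself had 1.63, 1.98 and 1.25 RPKM in the female libraries and 1.73, 1.19 and 0.900 RPKM in the male ones. The elk gene Kcnh8 had 2.67, 1.93 and 1.94 RPKM in the female libraries and 1.70, 1.76 and 1.55 RPKM in the male ones. The eag gene Kcnh5 had 0.233, 0.222 and 0.238 RPKM in the female libraries and 0.191, 0.144 and 0 RPKM in the male ones. For Kcnh8 and Kcnh5 each female library lay above each male one, a separation found in either direction for 5.7% of all genes tested. The Kcnh5 levels rest on 0 to 23 reads per library. Kcnh4 averaged 0.214 ± 0.118 RPKM, and Kcnh3 had at most 2 reads in any library.

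Among silent subunits, Kcnv1 (Kv8.1) was far ahead of the rest. Kcnv1 (ENSMUSG00000022342, chromosome 15, 45106284 to 45114934) stood at 10.1, 12.2 and 10.7 RPKM in the female libraries and 12.0, 11.5 and 6.12 RPKM in the male ones (mean 10.4 ± 2.26 RPKM, SD, n = 6). The 5 pooled libraries lay close together and male C lay below them. Kcns3 (Kv9.3) followed, with 2.00, 1.79 and 3.21 RPKM in the female libraries and 2.15, 2.37 and 2.68 RPKM in the male ones. Kcng1 (Kv6.1) had 0.964, 1.22 and 1.48 RPKM in the female libraries and 1.19, 1.13 and 1.31 RPKM in the male ones. Both were highest in female C. Kcnf1 (Kv5.1) had 0.0789, 0.205 and 0.0876 RPKM in the female libraries and 0.153, 0.0958 and 0.169 RPKM in the male ones. Kcns1 (Kv9.1) had 0.0928, 0.151 and 0.232 RPKM in the female libraries and 0.118, 0.0615 and 0.0992 RPKM in the male ones, from 4 to 15 reads. These are too few reads to order the libraries. Kcns2 averaged 0.650 ± 0.270 RPKM, and Kcng2, Kcng3, Kcng4 and Kcnv2 lay below 0.1 RPKM. Silent subunits together made up 11.9 ± 1.39% of the summed level. Of the Kv2 genes whose channels they modify, Kcnb2 had 7.12, 4.11 and 4.23 RPKM in the female libraries and 4.57, 4.91 and 3.76 RPKM in the male ones. Female A was highest, and the other 5 libraries lay close together. Kcnb2 exceeded Kcns3 by 0.98 ± 0.51 and Kcns1 by 4.44 ± 0.56 on the log2 scale in 6 of 6 libraries (exact sign-flip test, p = 0.03125, adjusted p = 0.0365).

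The Kv3 genes, which encode channels that open at high voltage and close fast, were led by Kcnc4 (Kv3.4), the A-type member of the group. Kcnc4 stood at 6.00, 7.76 and 6.97 RPKM in the female libraries and 6.76, 8.44 and 8.35 RPKM in the male ones (mean 7.38 ± 0.968 RPKM, SD, n = 6). Female A was lowest, and the sexes overlapped. Kcnc2 (Kv3.2) followed at a mean of 5.46 ± 1.37 RPKM. Kcnc1 (Kv3.1) had 0.938, 1.13 and 1.49 RPKM in the female libraries and 0.906, 1.33 and 1.19 RPKM in the male ones. Kcnc1 was highest in female C and lowest in male A. Kcnc4 lay above Kcnc1 by 2.57 ± 0.22 on the log2 scale (every library, exact sign-flip test, p = 0.03125, adjusted p = 0.0365).

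The Kv7 genes reported here were low. Kcnq3, which encodes an M-channel subunit, averaged 0.252 ± 0.127 RPKM (SD, n = 6). Kcnq3 stood at 0.220, 0.415 and 0.194 RPKM in the female libraries and 0.297, 0.336 and 0.0518 RPKM in the male ones. Male C was lowest. Kcnq5, another M-channel subunit gene, had 1.62, 2.23 and 1.49 RPKM in the female libraries and 2.25, 1.75 and 1.61 RPKM in the male ones. It averaged 1.82 ± 0.329 RPKM, and its libraries overlapped between the sexes. Kcnq1, best known from heart and inner ear, averaged 0.0279 ± 0.0283 RPKM. Of the 10 pairs reported here, 9 passed an adjusted p of 0.05, with the adjustment over all 14. The test asks whether the mean difference between the genes of a pair is other than 0.

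**Figure D2:**
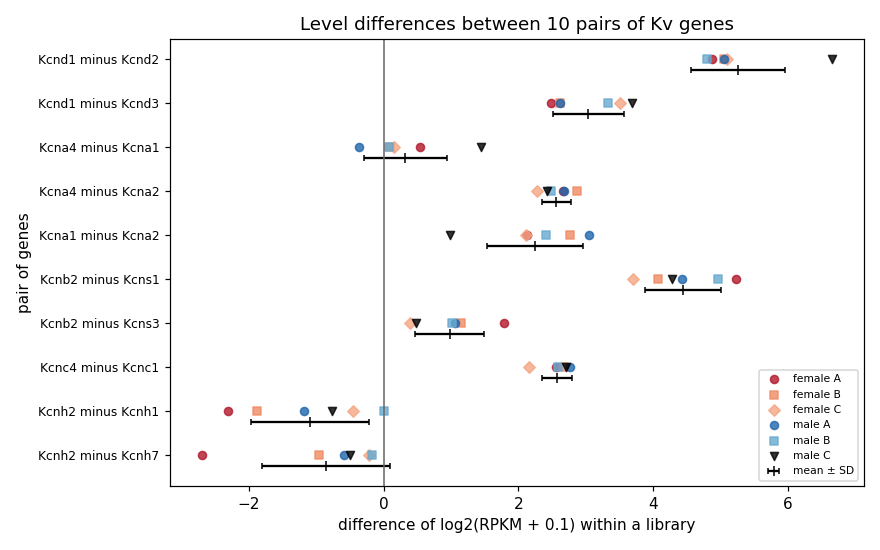
Difference in log2(RPKM + 0.1) between the genes of each of 10 pairs, 1 point per library, with the mean and SD below the points. For Kcna4 minus Kcna1 the points fall on both sides of 0, and for the other 9 pairs they fall on one side.

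By subfamily, Kcna genes made up 24.8 ± 2.94% of the summed Kv level and Kcnd genes 23.0 ± 2.40% (SD, n = 6 libraries). Kcnh genes followed at 15.7 ± 2.10%, Kcnc at 11.3 ± 0.54%, Kcnv at 8.19 ± 1.5% and Kcnq at 5.32 ± 0.43%. The Kcns, Kcng and Kcnf genes held 2.49 ± 0.48%, 1.13 ± 0.24% and 0.10 ± 0.04%. The summed level itself was 127 ± 7.37 RPKM, lowest at 116 RPKM in male C and highest at 138 RPKM in female B. In male C the Kcnd share was 27.7%, against 21.4 to 23.3% in the 5 pooled libraries, and the Kcna share was 19.9%, against 23.5 to 28.4%.

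**Figure D3:**
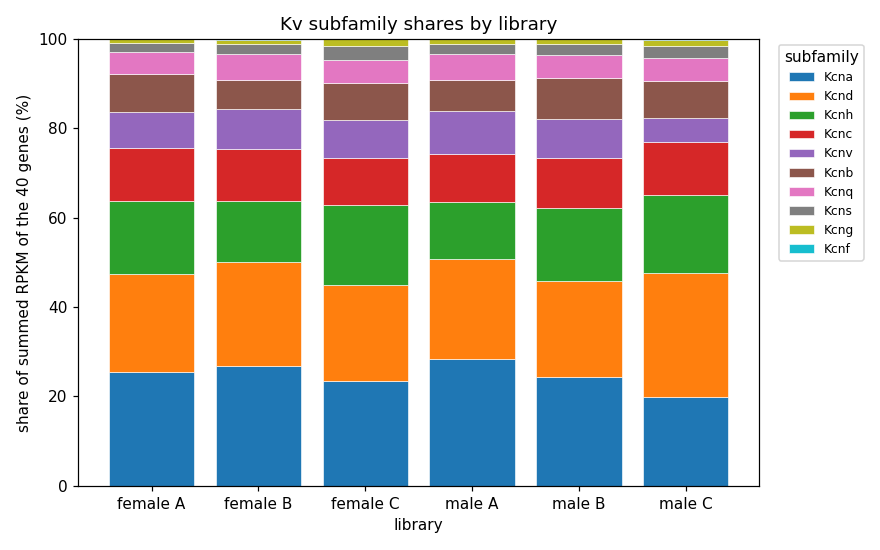
Share of the summed RPKM of the 40 genes held by each subfamily, in percent, 1 stacked bar per library. The Kcna and Kcnd bars are largest in every library, and in male C the Kcnd bar is larger than the Kcna bar.

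Promoter sequences are shown for genes at both ends of the range of levels, to set their base composition beside their expression. RefSeq promoter windows on build GRCm38.p6 matched 25 of the 40 genes, in 30 windows, of which the 250 bases before the annotated start were read. CG dinucleotides are in capitals, and each sequence reads 5′ to 3′ along the gene's strand. Kcna6 (chr6:126740675-126740924, minus strand) and Kcnh6 (chr11:106007898-106008147, plus strand) are among the leading genes, Kcnh5 (chr12:75177333-75177582, minus strand) is low and was unread in male C, and Kcna10 (chr3:107182893-107183142, plus strand) had no read.
Kcna6: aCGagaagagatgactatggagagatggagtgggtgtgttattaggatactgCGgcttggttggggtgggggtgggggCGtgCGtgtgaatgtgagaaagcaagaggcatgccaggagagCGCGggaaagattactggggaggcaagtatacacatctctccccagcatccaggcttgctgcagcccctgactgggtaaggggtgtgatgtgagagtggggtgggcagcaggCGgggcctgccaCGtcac
Kcnh6: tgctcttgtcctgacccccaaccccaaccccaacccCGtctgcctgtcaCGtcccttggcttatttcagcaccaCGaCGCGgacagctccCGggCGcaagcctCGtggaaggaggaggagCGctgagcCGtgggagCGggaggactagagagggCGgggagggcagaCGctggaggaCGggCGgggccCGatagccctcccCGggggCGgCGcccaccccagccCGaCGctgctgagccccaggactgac
Kcnh5: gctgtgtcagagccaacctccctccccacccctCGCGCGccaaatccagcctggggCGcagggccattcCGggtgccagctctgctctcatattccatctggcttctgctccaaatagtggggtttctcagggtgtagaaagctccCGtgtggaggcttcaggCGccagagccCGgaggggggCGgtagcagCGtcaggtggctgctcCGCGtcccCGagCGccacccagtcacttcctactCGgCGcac
Kcna10: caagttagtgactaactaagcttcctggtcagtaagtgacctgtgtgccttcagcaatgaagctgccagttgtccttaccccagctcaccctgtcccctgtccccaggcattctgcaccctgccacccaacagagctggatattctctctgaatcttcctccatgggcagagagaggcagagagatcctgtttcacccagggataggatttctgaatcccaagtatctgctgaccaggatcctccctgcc
The windows hold 8 CG dinucleotides for Kcna6, 21 for Kcnh6, 16 for Kcnh5 and 0 for Kcna10. Over all 30 windows the median was 14, beside 6 over 32851 promoter windows of mouse genes. The 17 windows of 12 genes at 1 RPKM or more had a median of 14. The 13 windows of 13 genes below 1 RPKM had a median of 16. Windows of the same gene were counted separately, so these medians are not per gene. The TATA box letters TATAAA, searched on both strands, were in none of the 30 windows and in 12.4% of all windows, which describes these letters in this window only.

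Genes of proteins that assemble with Kv alpha subunits were also measured. Of 29 such genes, 22 averaged 1 RPKM or more and 26 passed the count filter. For Kv4 channels, the transmembrane partner Dpp6 averaged 56.0 ± 7.03 RPKM, and the calcium-binding KChIP genes Kcnip4 and Kcnip2 averaged 19.0 ± 2.98 and 14.2 ± 4.70 RPKM. Kcnip1, Dpp10 and Kcnip3 were lower, at 2.08 ± 0.302, 1.98 ± 0.338 and 1.78 ± 0.133 RPKM. For Kv1 channels, the beta subunit gene Kcnab2 averaged 39.4 ± 9.43 RPKM, Kcnab1 4.00 ± 0.535 RPKM and Kcnab3 0.174 ± 0.0800 RPKM (SD, n = 6 throughout).

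Genes that place Kv1 channels along axons were present too, with Cntn2 at 28.6 ± 2.11 RPKM, Adam22 at 25.1 ± 5.09 RPKM and Cntnap2 at 8.67 ± 0.982 RPKM. For Kv2 channels, the partner Amigo1 averaged 3.16 ± 0.438 RPKM, and Vapa and Vapb, which tether Kv2 clusters to the endoplasmic reticulum, 172 ± 34.3 and 4.25 ± 0.559 RPKM. The small Kcne subunits were low, with Kcne1l (Kcne5) at 2.30 ± 1.15 RPKM, Kcne3 at 0.949 ± 0.177 RPKM and Kcne1, Kcne2 and Kcne4 between 0.0233 and 0.147 RPKM.

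Library male C, the only one from a single embryo, had lower levels of many Kv genes than the 5 pooled libraries. Its sample record is also later than those of the others. In male C 19526 genes had a read, against 21028 in female A, at like read totals of 15.69 and 15.81 (units of 1e+06). The part of embryo number, later record and number of genes read in the Kv levels was not tested. Of the 30 Kv genes tested, male C was the lowest of the 6 libraries for 16 and the highest for 1, Kcnd1. Over all 15026 genes tested, male C was lowest for 22.9% and highest for 22.7%. The median difference between male C and the mean of the 5 pooled libraries was -0.41 log2 CPM over the 30 Kv genes, and -0.01 over all genes tested. No permutation test of 1 library against 5 was made, since an exact one could not reach the threshold. Female A was lowest for 7 Kv genes and the other 4 libraries for 1 to 3 each.

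Kcna1 had the largest shortfall among the Kv genes above 1 RPKM. It stood at 0.945 RPKM in male C, against 3.36 to 5.08 RPKM in the pooled libraries. The log2 CPM difference was -2.19, where the SD among the 5 pooled libraries was 0.25. Kcnd2, the A-type subunit Kv4.2, stood at 0.196 RPKM in male C, against 0.619 to 0.801 RPKM in the pooled libraries, a difference of -1.71 (pooled SD 0.15). Kcnq3 stood at 0.0518 RPKM in male C, against 0.194 to 0.415 RPKM in the pooled libraries, a difference of -2.30 (pooled SD 0.44). The ranges of these 3 genes did not overlap male C.

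Kcnh5 had 0 reads in male C, against 14 to 23 reads in the pooled libraries. Set against a limit of 3 reads in male C, its level there was at least 4.13-fold lower than the pooled mean of 0.205 RPKM. Kcna5, which encodes Kv1.5, had 1 read in male C, against 9 to 29 reads. Smaller shortfalls were seen for Kcnv1 at -0.88 (pooled SD 0.11) and Kcna4 at -0.77 (pooled SD 0.17). At the other end were Kcnf1 at 0.46 (pooled SD 0.51), Kcnd1 at 0.28 (pooled SD 0.10) and Kcnh6 at 0.26 (pooled SD 0.27). The KChIP gene Kcnip2, a Kv4 partner, was highest in male C, at 23.6 RPKM, against 10.6 to 13.5 RPKM in the pooled libraries. Of the 26 auxiliary and partner genes tested, male C was highest for 4 and lowest for 6. Over all genes tested these shares were 22.7% and 22.9%, so the partner genes as a set were not set apart in male C.

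**Figure D4:**
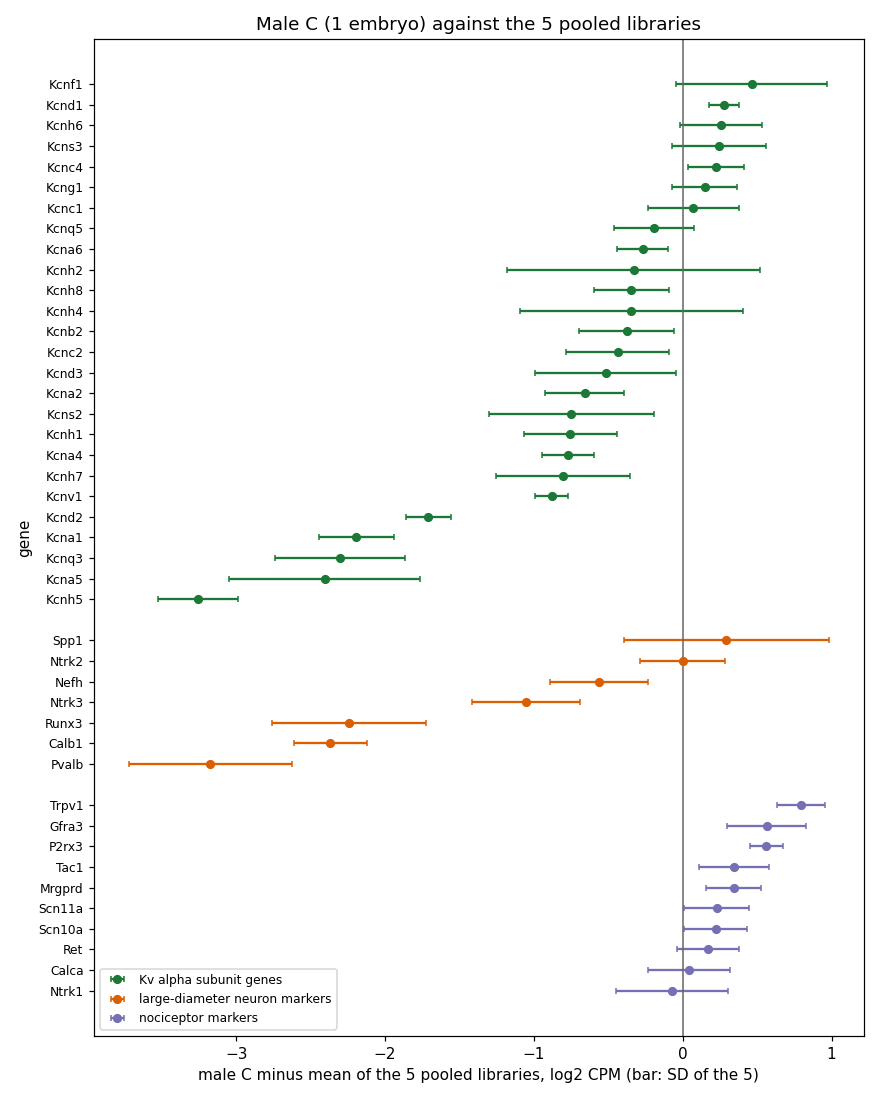
Difference in log2 CPM between male C and the mean of the 5 pooled libraries, for 26 of the 30 Kv genes tested, for 7 tested markers of large-diameter neurons and for 10 nociceptor markers; bars are the SD of the 5 pooled libraries. Kcnh5, Kcna5, Kcnq3 and Kcna1 lie below -2, as do Pvalb, Calb1 and Runx3, while 9 of the 10 nociceptor markers lie above 0.

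Some, but not all, markers of large-diameter mechanoreceptors and proprioceptors were also clearly low in male C. The summed level of the 8 markers was 23.6 RPKM in male C, against 37.7 to 51.7 RPKM in the pooled libraries, and male C was lowest for 5 of the 8. Pvalb stood at 0.840 RPKM in male C, against 4.55 to 11.3 RPKM in the pooled libraries, Calb1 at 0.972, against 3.82 to 5.72 RPKM, and Runx3 at 0.0134, against 0.0881 to 0.258 RPKM. Nefh was only just lowest in male C, at 17.5 RPKM, against 17.7 to 31.6 RPKM in the pooled libraries. Ntrk2 stood at 2.45 RPKM in male C, within the pooled range of 1.80 to 2.97 RPKM, and Spp1 at 0.939 RPKM, within 0.356 to 1.33 RPKM. Mafa had no read in male C, female A, female B and male A and at most 2 reads in the others. The 10 nociceptor markers summed to 2116 RPKM in male C, within the pooled range of 1529 to 2119 RPKM, and the 10 glial markers to 1069 RPKM, against 891 to 1045 RPKM. Pan-neuronal markers summed to 7261 RPKM in male C, against 5239 to 6204 RPKM, and endothelial and mural markers to 20.5 RPKM, against 13.9 to 17.97 RPKM. Blood and immune markers summed to 28.6 RPKM in male C, against 29.8 to 838 RPKM in the pooled libraries. Over all genes tested, gene length and expression level moved with the difference as well. Of the tested genes at or above the median length of the Kv genes, 29.1% were lowest in male C, and their median difference was -0.13 log2 CPM. Below that length the share was 19.8% and the median difference 0.05 log2 CPM. Among the Kv genes the share was 60.0% (9 of 15) at or above that length and 46.7% (7 of 15) below it, which are small groups. Of all tested genes below 1 RPKM, 30.1% were lowest in male C, with a median difference of -0.17 log2 CPM. Among the Kv genes the share was 63.6% (7 of 11) below 1 RPKM and 47.4% (9 of 19) at 1 RPKM or more, where it was 20.7% over all genes. The part of the marker genes, length and level in the Kv differences was not tested.

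Female C and male B, the pair most alike over all genes, also had like levels of a Kv4 gene. Kcnd3 stood at 2.06 and 2.41 RPKM in female C and male B, against 3.96, 4.31 and 3.77 RPKM in female A, female B and male A. Male C lay with female C and male B, at 2.21 RPKM. Since this split was read from the data and each side holds both sexes, it is given as values only.

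Spread between libraries differed among the Kv genes. The biological coefficient of variation from the edgeR fit had a median of 0.266 over the 30 Kv genes and 0.238 over all tested genes. Kcnd1 and Kcna6 were among the steadiest, at 0.164 and 0.175. The most variable were Kcna5 at 0.571, Kcnq3 at 0.479 and Kcnh5 at 0.465, all 3 of which were lowest in male C.

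No Kv gene passed the test between female and male libraries. By edgeR's quasi-likelihood test with Benjamini-Hochberg adjustment over all genes, 0 of 30 Kv genes were called, beside 5 of 15026 genes or 0.0333% over all. At an unadjusted p below 0.05 the count was 0 of 30 by edgeR, by DESeq2 and by limma-voom, where the share over all genes was 1.1%, 0.938% and 1.01%. At those shares a count of 0 among 30 genes does not set the Kv genes apart. Kcnd1, which lies on the X chromosome, had a fold change between female and male libraries of -0.09 ± 0.16 (log2, standard error). The smallest p belonged to Kcnc2, at 7.35, 6.78 and 4.59 RPKM in the female libraries and 5.66, 4.23 and 4.12 RPKM in the male ones. The sexes overlapped, and the log2 fold change was 0.42 ± 0.23 (standard error). Next came Kcnh8 at 0.38 ± 0.24, which was 0.21 without female A, and Kcnh5 at 0.96 ± 0.71, which was 0.46 without male C and 1.5 without male A. All female libraries lay above all male libraries for 2 of the 30 genes, Kcnh8 and Kcnh5, and for 0 genes below them, beside 5.7% of all genes tested in either direction.

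Of the 30 Kv genes, 21 were nominally higher in female libraries, with a median log2 fold change of 0.15, where the share over all genes was 49.1% and the median -0.0050. Without male C these became 17 of 30 genes and a median of 0.03. Of the 26 auxiliary and partner genes tested, 0 were called and 11 were nominally higher in female libraries (median -0.05 on the log2 scale). The labels do not say which embryos shared a litter, and the p-values measure the spread between libraries, of which 5 are pools and 1 is a single embryo.

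**Figure D5:**
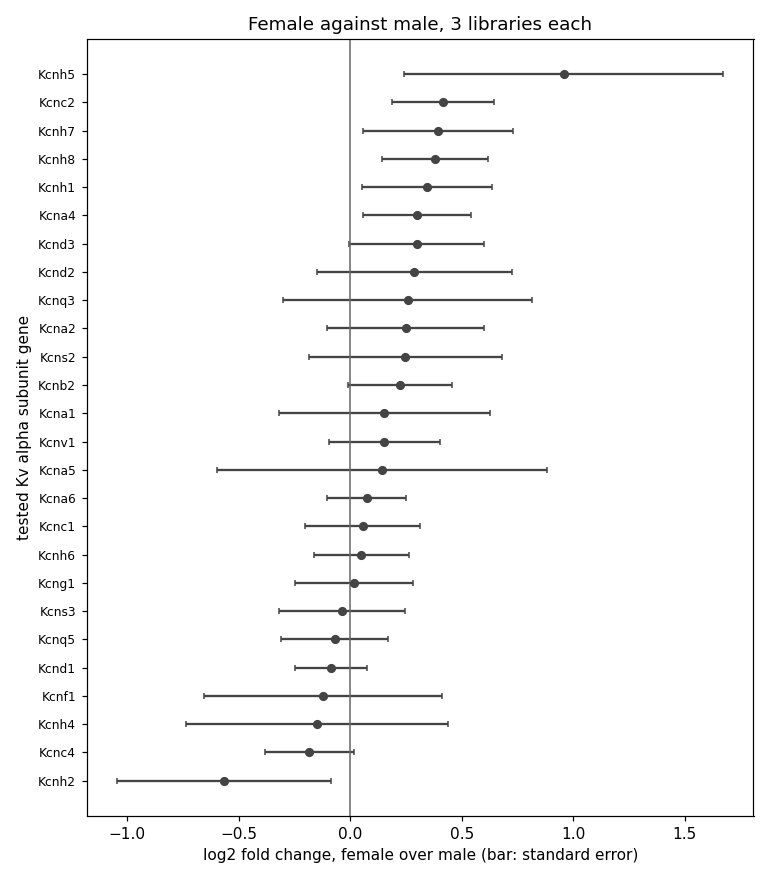
Log2 fold change, female over male, of 26 of the 30 Kv genes tested, with standard errors from the edgeR fit (3 libraries per sex). The bars of most genes cross 0, and 19 of the 26 points lie above 0.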

How the data were processed

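Libraries were made from 10 ng of RNA by SMARTer amplification for Illumina sequencing, per the labels' protocols. The submitters' processing notes name featureCounts 1.4.5, Subread and build GRCm38.p2. Aligner settings, annotation release, strand and multiple matches are not stated there. The authors deposited a read count, a CPM and an RPKM value per gene and library. The deposited CPM and RPKM equalled values recomputed from count and gene length within 1e-06 in all 6 files, so levels were recomputed with TMM library sizes (edgeR 4.0.16, R 4.3.3). Symbols came from GENCODE M21 by identifier, for 97.26% of identifiers.

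Genes were filtered with filterByExpr and tested, female against male, with edgeR's quasi-likelihood test; DESeq2 1.42.0 and limma-voom (limma 3.58.1) were alternatives. Log2 CPM used a prior count of 2. Pairs of genes were compared by an exact sign-flip permutation test over libraries on log2(RPKM + 0.1), which understates differences of low genes. The edgeR step was tested on simulated data. The Kv genes, lists, pairs and tests were chosen with earlier results of these data known. Values per library were to be printed for the 12 highest genes, the leading gene of each subfamily, genes of smallest p, of highest variation and farthest apart in male C, and those in pairs; other genes are given by mean or range. Exact tests on 6 libraries cannot go below 0.03125. Some genes are counted in the totals but not reported here by name or value.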

Additional observations from a re-analysis of the deposited data

Results flagged for a closer look

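For 5 of the 30 Kv genes tested, 1 library stood apart from the other 5, by the gap to its nearest neighbour as a share of the whole range of log2(RPKM + 0.1), taken against Dixon's 95% critical value for 6 values. Chance flags about 1 in 20 genes, and over all 15026 genes tested the share was 6.34%. Male C stood apart as the lowest library for 4 of the 30 Kv genes, beside 246 of 15026 or 1.64% of all genes. Among flagged genes alone this was 4 of 5 Kv genes, beside 246 of 953 over all genes. The ratio was 0.797 for Kcnd2, which stood at 0.196 RPKM in male C. It was 0.748 for Kcna1, at 0.945 RPKM, 0.733 for Kcnh5, with no read in male C, and 0.731 for Kcnv1, at 6.12 RPKM.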

How the results depend on the processing

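The number of Kv genes at 1 RPKM or more was 19 with the deposited RPKM, with RLE factors, and without each library in turn, and 18 in female A, female B and male A alone (added after the data were examined), and 0 Kv genes were called between sexes under any of the alternatives run. Over all genes, 5 genes were called between sexes, and 12 without the filter on low counts, where more genes are tested. Without female C 3 Kv genes, and without male A 2, had an unadjusted edgeR p below 0.05, against 0 with all libraries; over all genes these shares were 5.25% and 2.29%, against 1.1%. With the letter as a replicate block 5 genes and no Kv gene were called. Libraries with the same letter did not pair: their deviations from the mean of their sex correlated at 0.28 for A, -0.29 for B and -0.08 for C. With library set as a term, added after the data were examined, in which male C stands alone and drops out of the sex difference, 6 genes and no Kv gene were called. Without a correction for gene length, Kcna4 minus Kcna1 changed direction, to -0.55; the other 9 pairs reported kept their direction and passed under each pseudocount and without the length correction. Without any 1 library the pairs kept their direction, but 5 libraries allow no exact p below 0.0625, so none can pass there. Male C stayed lowest for 16 Kv genes with RLE factors and with a prior count of 0.5, and was lowest for 20 against male A and B alone and for 19 against female A, female B and male A alone, a set chosen after the data were examined. It was highest for 5 and 7 genes in these smaller sets. Fewer libraries then compete, and over all genes male C was lowest for 33.6% and 34.6% and highest for 32.2% and 34.4%.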
